A study of Mus musculus with 28 samples.

Results

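Bone morphogenetic protein (BMP) signaling was read through 10 genes of the 18194 measured: the ligands Bmp2, Bmp4, Bmp5, Bmp6 and Bmp7, the type II receptor Bmpr2, the secreted antagonist Grem1 and the target genes Id1, Id2 and Id3. They were chosen by name, and each was read from its brightest probe set, judged by the mean of the 26 tissue arrays, among those that list 1 gene. All 10 were on the array, with 18 probe sets between them, and no filter on low values was applied. The study followed JygMC(A), a mammary carcinoma line of the mouse with spontaneous lung metastasis, from the mammary gland to the lung. RNA of whole tissue was measured on Affymetrix 3' expression arrays, and values are given as log2 units of the RMA signal, in which a difference of 1 is a factor of 2.

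Lung metastases (LungMets, n = 9) were nodules taken on day 50, and primary tumors (PT, n = 11) were taken on day 30, after 50000 JygMC(A) cells were placed in mammary gland 4 of female, young adult Balb/C nude mice. Normal lung (NL, n = 3) and normal mammary gland (NMG, n = 3) came from healthy, young adult Balb/C nude mice that received no cells. JygMC(A) cells grown as 3D spheres and as a monolayer gave 1 array each. All tumors derive from this single line, which carried a GFP and luciferase reporter, and the hosts lack a thymus. More than a single fragment was collected from some mice, so some arrays may share an animal, and the p-values then measure only how samples spread.

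LungMets and PT were spread over the same pair of label dates, while NL and NMG had a label date each, so date and tissue cannot be told apart in any comparison with a normal tissue. All LungMets were taken on day 50 and all PT on day 30, so time and site cannot be told apart between them. Array medians lay between 5.00 and 5.18, and 3 Y-linked genes, used as a guide to the lowest signal in these female hosts, averaged 2.86 to 3.23 on the tissue arrays. Of the 26 tissue arrays, 2 stood apart from their labels. PT replicate 5 was closer to the mean profile of LungMets (r = 0.989) than to that of the other PT (r = 0.968), and LungMets replicate 9 was closer to that of PT (r = 0.983) than to that of the other LungMets (r = 0.963). The mean of 8 lung epithelium markers was 6.69 in LungMets replicate 9 against a median of 10.89 in LungMets, and 10.51 in PT replicate 5 against a median of 5.16 in PT. Both arrays were kept under their labels, and the results that rest on them are given with and without them.

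BMPs are secreted dimers of the TGF-beta superfamily that bring type I and type II receptors together. The type II receptor, such as BMPR2, phosphorylates the type I receptor, which phosphorylates SMAD1, SMAD5 and SMAD8; these enter the nucleus with SMAD4 and switch on genes among which the Id genes are the classical immediate targets. Id proteins lack a DNA-binding region and bind E-proteins, which keeps basic helix-loop-helix factors from DNA. In the lung, BMP4 takes part in branching of the airways, and BMPR2 in endothelium is known for its loss in heritable pulmonary arterial hypertension.

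Promoters are shown for 3 ligands that were high in lung and for the 2 Id genes with an entry because SMAD1/5 are known to bind GGCGCC and GGAGCC elements, which for Id genes have been described upstream of the start. RefSeq promoters (GRCm38.p6) were found for 7 of the 10 genes, namely Bmp4, Bmp5, Bmp6, Bmpr2, Grem1, Id2 and Id3. The 250 bases before the start are printed 5′ to 3′ on the strand of the gene for these 5 genes, with GGCGCC and GGAGCC, on either strand, in capitals. Bmp4 is at chr14:46390670-46390919 (minus strand), Bmp5 at chr9:75775115-75775364 (plus strand), Bmp6 at chr13:38345466-38345715 (plus strand), Id2 at chr12:25096093-25096342 (minus strand) and Id3 at chr4:136143572-136143821 (plus strand).
Bmp4: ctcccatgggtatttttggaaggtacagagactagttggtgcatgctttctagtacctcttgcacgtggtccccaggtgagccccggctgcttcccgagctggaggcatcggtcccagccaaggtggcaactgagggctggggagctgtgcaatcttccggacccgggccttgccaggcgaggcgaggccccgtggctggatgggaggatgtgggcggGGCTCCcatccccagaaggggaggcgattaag
Bmp5: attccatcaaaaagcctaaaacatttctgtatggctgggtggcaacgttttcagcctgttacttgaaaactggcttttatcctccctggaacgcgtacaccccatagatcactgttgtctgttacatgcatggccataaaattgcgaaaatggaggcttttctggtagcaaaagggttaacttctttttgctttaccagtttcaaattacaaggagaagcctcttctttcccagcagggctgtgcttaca
Bmp6: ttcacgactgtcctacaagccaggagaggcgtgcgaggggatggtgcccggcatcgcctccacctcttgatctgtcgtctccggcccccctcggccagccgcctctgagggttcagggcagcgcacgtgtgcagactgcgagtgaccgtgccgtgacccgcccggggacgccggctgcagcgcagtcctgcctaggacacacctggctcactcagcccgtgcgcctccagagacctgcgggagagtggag
Id2: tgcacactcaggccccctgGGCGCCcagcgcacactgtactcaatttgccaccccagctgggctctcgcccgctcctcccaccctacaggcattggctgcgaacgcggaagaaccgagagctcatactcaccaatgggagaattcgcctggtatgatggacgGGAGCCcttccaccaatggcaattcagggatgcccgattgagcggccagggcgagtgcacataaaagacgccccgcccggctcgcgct
Id3: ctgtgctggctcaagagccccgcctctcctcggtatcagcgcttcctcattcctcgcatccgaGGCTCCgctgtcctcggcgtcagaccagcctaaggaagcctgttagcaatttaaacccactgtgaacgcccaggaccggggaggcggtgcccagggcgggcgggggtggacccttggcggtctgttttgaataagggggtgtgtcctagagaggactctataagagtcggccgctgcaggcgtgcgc
GGCGCC lay within 250 bases before to 50 bases after the start in 3 of the 7 promoters (Bmpr2, Grem1 and Id2), against 11.9% of 32851 promoters in the table. GGAGCC was in 3 of the 7 (Bmp4, Id2 and Id3), against 30.8% of all. Id2 alone of the 7 held both. The shorter SMAD box GTCT was in 6 of the 7 and the E-box CANNTG in 3, against 88% and 72.3% of all promoters, and GTCT can overlap other motifs. A match is a description of these letters and not a bound site.

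In lung metastases the ligands Bmp4, Bmp5 and Bmp6 stood above their level in primary tumors and below their level in normal lung. The difference from primary tumors was 6.35-fold for Bmp4. For Bmp5 and Bmp6 no exact fold is given. There 9 and 6 of the 11 primary tumors read no more than 3.74, the highest PT value of the Y-linked gene Kdm5d. Of the 10 genes, 4 were called higher in LungMets than in PT (limma, adjusted p under 0.05), where 9.02% of all genes were called higher, and 0 were called lower, where 6.14% of all genes were. Against NL, 6 of the 10 were called lower in LungMets, where 22.4% of all genes were.

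Bmp4, a ligand of the branch it forms with Bmp2, ranged from 4.74 to 8.78 with a median of 7.56 in LungMets, and from 4.22 to 7.07 with a median of 4.53 in PT. The NL arrays read 9.84, 9.62 and 9.80, and the NMG arrays 5.40, 5.25 and 6.004. Without LungMets replicate 9 and PT replicate 5 the LungMets and PT arrays did not overlap, and every NL array lay above every tumor array. The mean of LungMets was 2.67 above PT (SE 0.386, 6.35-fold, limma adjusted p = 0.000119). It was 2.32 below NL on the log2 scale (-2.32, SE 0.572, adjusted p = 0.00179) and 1.89 above NMG (SE 0.572, adjusted p = 0.0104), a call lost without NMG replicate 2 (adjusted p = 0.0527). PT and NMG, the neighbours at the low end of the order, differed by -0.78 (95% confidence interval -1.93 to 0.38, adjusted p = 0.264), which did not pass. Without PT replicate 5 every PT array (highest 4.90) lay below every NMG array, and without LungMets replicate 9 as well the difference was -1.01 and called (adjusted p = 0.00531).

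Bmp5, of the Bmp5, Bmp6 and Bmp7 branch, followed the same order at the top. LungMets arrays lay between 3.65 and 7.17 with a median of 6.29, and PT arrays between 3.17 and 5.72 with a median of 3.50. NL read 8.55, 8.67 and 8.66, and NMG read 3.64, 3.28 and 3.12, close to the signal of the Y-linked genes. Of the PT arrays 9 of 11, and all 3 NMG arrays, read no more than the highest PT value of the Y-linked gene Kdm5d (3.74), so these groups lie at the low end of the signal. LungMets averaged 2.34 above PT on the log2 scale (SE 0.332, limma adjusted p = 0.000119), 2.72 above NMG (adjusted p = 9.68e-05) and fell by 2.56 against NL (adjusted p = 0.000145). PT and NMG differed by 0.39 (95% confidence interval -0.60 to 1.38), which did not pass. The other 2 Bmp5 probe sets gave 0.84 and 0.91 for LungMets minus PT, each called (adjusted p = 0.00164 and 0.00429).

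Bmp6, whose product signals in endothelium and in iron homeostasis, ranged from 3.56 to 8.34 with a median of 6.08 in LungMets and from 3.34 to 6.17 with a median of 3.67 in PT. The highest LungMets array, replicate 7, read 8.34, and the 3 NL arrays read 9.77, 9.25 and 9.20, above every tumor array. NMG read 4.39, 4.51 and 4.84, inside the range of PT, whose upper end is replicate 5, and above the other 10 PT arrays (highest 4.31). Of the 11 PT, 6 read no more than the highest Kdm5d value. LungMets exceeded PT by 2.02 on the log2 scale (SE 0.416, limma adjusted p = 0.00171) and fell by 3.41 against NL (10.6-fold, adjusted p = 7.10e-05). The difference of 1.42 from NMG did not pass (95% confidence interval 0.15 to 2.69, adjusted p = 0.0687). It was called without LungMets replicate 9 (1.72, adjusted p = 0.0114) or LungMets replicate 3 (1.59, adjusted p = 0.0396).

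**Figure D1:**
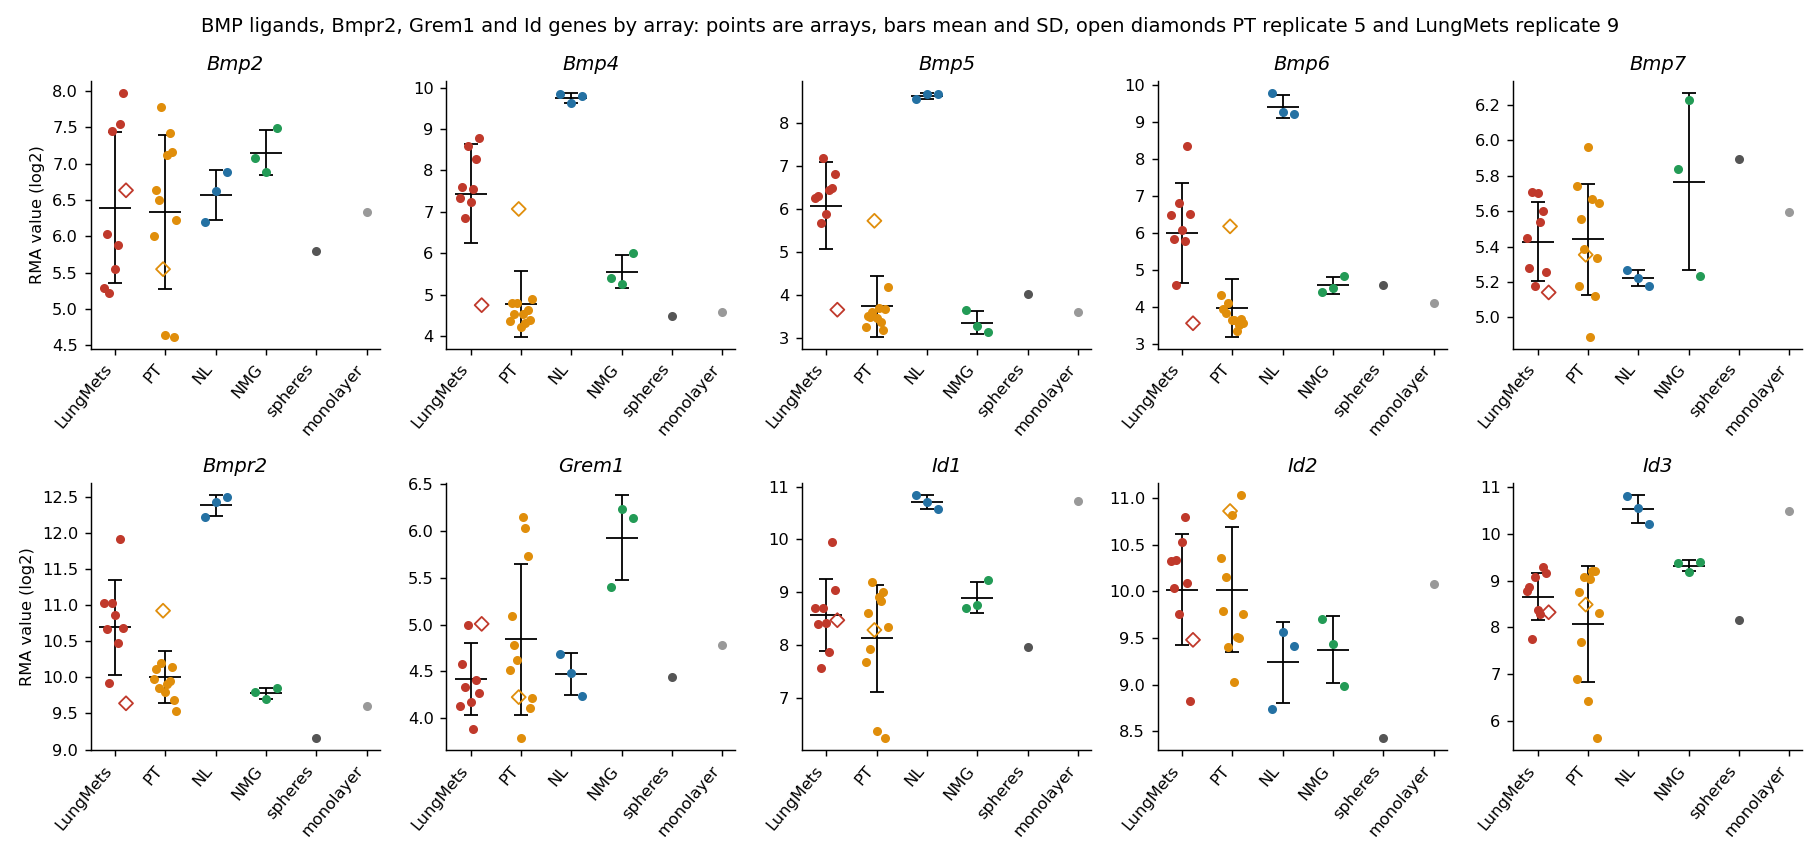
RMA values (log2, each panel on its own axis) of the 10 genes on single arrays of LungMets, PT, NL, NMG, spheres and monolayer, with the mean and SD of groups of 3 or more arrays. Bmp4, Bmp5, Bmp6, Bmpr2 (probe set 1434310_at), Id1 and Id3 of all 3 NL arrays lie above all PT and LungMets arrays. How many of all genes separate in this way, here or between the other groups named in the text, was not counted. Such separation is therefore a description of single genes. PT replicate 5 and LungMets replicate 9, drawn as open diamonds, exchange places in Bmp4, Bmp5 and Bmp6.

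Leaving out PT replicate 5 and LungMets replicate 9 widened these differences. LungMets minus PT was then 3.23 for Bmp4 (SE 0.205), 2.84 for Bmp5 (SE 0.159) and 2.55 for Bmp6 (SE 0.300), all called by limma. Within the 4 LungMets and 4 PT of the first label date it was 2.97, 2.89 and 1.88 for Bmp4, Bmp5 and Bmp6, all called. Within the 5 LungMets and 7 PT of the second date it was 2.46, 1.96 and 2.12 with none called (adjusted p = 0.205, 0.205 and 0.217), where 0 of all genes were called. Both arrays that stand apart belong to that date, and without them the second date gave 3.47, 2.81 and 3.11, all called, a choice made after seeing the data.

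The lung epithelium markers moved with these ligands. All 8 measured markers were called higher in LungMets than in PT and 3 of 8 lower than in NL, and their mean ranged from 6.69 to 11.19 in LungMets, from 4.91 to 10.51 in PT, from 12.17 to 12.27 in NL and from 5.21 to 7.58 in NMG. Endothelium markers did likewise, with 7 of 8 higher in LungMets than in PT and 8 of 8 lower than in NL, and a mean of 6.40 to 8.83 in LungMets, 4.59 to 7.56 in PT, 10.25 to 10.34 in NL and 7.38 to 7.65 in NMG. Cartilage markers went the other way, with 4 of 6 called lower in LungMets than in PT and 4 of 6 higher than in NL. Within the 9 LungMets the correlation with the lung epithelium mean was 0.89 for Bmp4, 0.93 for Bmp5 and 0.79 for Bmp6, and with the endothelium mean it was 0.96 for Bmp6. Spearman rho was 0.65, 0.58, 0.78 and 0.93 for these, and r without the 2 arrays farthest from the median of the first gene was 0.65, 0.61, 0.75 and 0.95, all given as descriptions. The part of these cells in the differences was not tested, and in whole tissue fewer cells of a type and less RNA per cell cannot be told apart. The cell lines, which hold no host tissue, read 4.47 (spheres) and 4.58 (monolayer) for Bmp4, 4.02 and 3.61 for Bmp5, and 4.58 and 4.11 for Bmp6. Each lay inside the range of PT, but without PT replicate 5 the sphere value of Bmp6 lay above every PT array (highest 4.31).

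**Figure D2:**
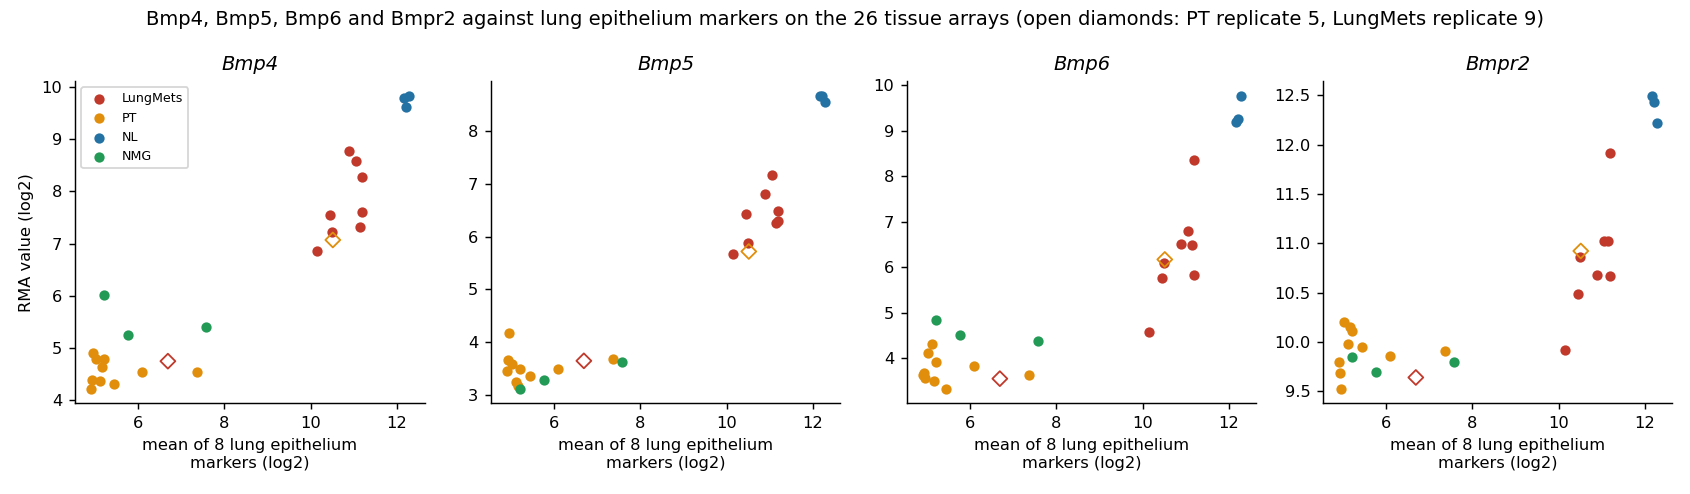
RMA values (log2) of Bmp4, Bmp5, Bmp6 and Bmpr2 against the mean of 8 lung epithelium markers on the same array (log2), 1 point for each of 26 tissue arrays. PT replicate 5 (marker mean 10.51) lies among the LungMets arrays and LungMets replicate 9 (6.69) beside the PT arrays.

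By their brightest probe sets Bmp2 and Bmp7 showed no difference between groups that passed the test. Bmp2 ranged from 5.22 to 7.97 with a median of 6.03 in LungMets and from 4.62 to 7.78 with a median of 6.49 in PT, against 6.20, 6.62 and 6.88 in NL and 7.08, 6.88 and 7.49 in NMG. LungMets minus PT was 0.07 (95% confidence interval -0.78 to 0.91), and PT minus NMG was -0.82 (-2.04 to 0.40), an interval that holds more than a 2-fold decrease. Bmp7, a ligand of the same branch as Bmp5 and Bmp6, lay close to the middle of the array signal, with 5.14 to 5.71 in LungMets, 4.89 to 5.96 in PT, 5.18 to 5.27 in NL and 5.24 to 6.23 in NMG. Its LungMets minus PT difference was -0.01 (95% confidence interval -0.27 to 0.25). Without NMG replicate 3, the lowest of its group, Bmp7 was called lower in LungMets, in PT and in NL than in NMG. The other 2 Bmp7 probe sets gave calls against NMG with all arrays, and both were dim. Probe set 1418910_at averaged 3.62 in LungMets, 3.64 in PT, 3.48 in NL and 4.28 in NMG. For 1432410_a_at these means were 3.32, 3.50, 3.35 and 3.89. Outside NMG all lie below the highest PT value of Kdm5d (3.74). Probe set 1418910_at was called lower than NMG in LungMets (-0.66, limma adjusted p = 0.0229), PT (-0.64, adjusted p = 0.0196) and NL (-0.80, adjusted p = 0.0350). Probe set 1432410_a_at was called lower in LungMets (-0.57, adjusted p = 0.0122). It did not pass in PT (-0.39, adjusted p = 0.0662) or NL (-0.54, adjusted p = 0.0700).

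Bmpr2, the type II receptor, was highest in NL by its brightest probe set (1434310_at). LungMets read 9.64 to 11.91 with a median of 10.68, PT 9.53 to 10.92 with a median of 9.95, NL 12.22, 12.43 and 12.49, and NMG 9.80, 9.70 and 9.85. The highest PT array was again replicate 5 and the lowest LungMets array replicate 9. LungMets averaged 0.68 above PT (SE 0.202, 1.61-fold, limma adjusted p = 0.0227), 0.91 above NMG (adjusted p = 0.0174) and fell by 1.69 against NL (adjusted p = 5.47e-05). The call against NMG was lost without NMG replicate 1 or 2 (adjusted p = 0.0524 and 0.0648) and in a fit of the 2 groups alone (adjusted p = 0.0576). PT and NMG differed by 0.23 (95% confidence interval -0.38 to 0.83). Without PT replicate 5 and LungMets replicate 9, LungMets minus PT was 0.91 (limma adjusted p = 0.000329), and it was 0.62 within the first label date and 0.72 within the second, neither called.

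The direction of Bmpr2 depended on the probe set. Probe set 1419616_at averaged 8.28 in LungMets, 8.70 in PT, 7.27 in NL and 5.16 in NMG, so that LungMets were lower than PT (-0.42, limma adjusted p = 0.000663) and higher than NL (1.01, adjusted p = 9.77e-08), and PT were 3.54 above NMG (adjusted p = 3.32e-18). The third probe set, 1441652_at, gave 0.02 for LungMets minus PT, and the mean of the 3 gave 0.10, neither called. Label date as a fixed block also ended the call of the brightest one (adjusted p = 0.0560). JygMC(A) cells read 8.99 as spheres and 8.62 as monolayer on 1419616_at, near the level of the tumors. Where on the transcript each probe set lies was not looked up.

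Grem1, which encodes Gremlin 1, an antagonist that binds BMP2, BMP4 and BMP7, was highest in normal mammary gland. LungMets ranged from 3.88 to 5.01 with a median of 4.33, PT from 3.79 to 6.15 with a median of 4.62, NL was 4.69, 4.48 and 4.24, and NMG was 5.40, 6.24 and 6.14. Every LungMets and NL array lay below every NMG array, while 3 PT arrays (replicates 7, 8 and 9, at 6.15, 6.03 and 5.73) lay within the NMG range. PT averaged 1.09 below NMG on the log2 scale (-1.09, SE 0.378, limma adjusted p = 0.0203), the 1 call among the 10 genes in PT against NMG, where 21.0% of all genes were called lower and 26.7% higher. The call was lost without NMG replicate 2 (-0.93, adjusted p = 0.105) or NMG replicate 3 (-0.98, adjusted p = 0.0938) and in a fit of the 2 groups alone (adjusted p = 0.0629). LungMets fell by 1.51 against NMG (SE 0.387, adjusted p = 0.00307). In that comparison 3 of the 10 genes were called higher (Bmp4, Bmp5 and Bmpr2) and 1 lower, where 23.1% and 17.9% of all genes were.

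Adipocyte markers differed with Grem1 between tumors and mammary gland: all 6 measured were called lower in PT and in LungMets than in NMG, with means of 5.23 to 7.42 in LungMets, 5.44 to 7.10 in PT and 11.16 to 11.76 in NMG. Markers of other cells were also called lower in PT than in NMG, with 5 of 5 for lymphocytes, 4 of 5 for smooth muscle and myoepithelium, 5 of 8 for endothelium, 4 of 7 for luminal epithelium, 3 of 5 each for basal epithelium and macrophages and 1 of 7 for fibroblasts. Proliferation markers (5 of 5) and cartilage markers (4 of 6) were called higher in PT than in NMG. The part of these cells in the Grem1 difference was not tested. Within the 11 PT, Grem1 ran against Epcam, an epithelial adhesion molecule (r = -0.93, a description over arrays of 1 group).

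**Figure D3:**
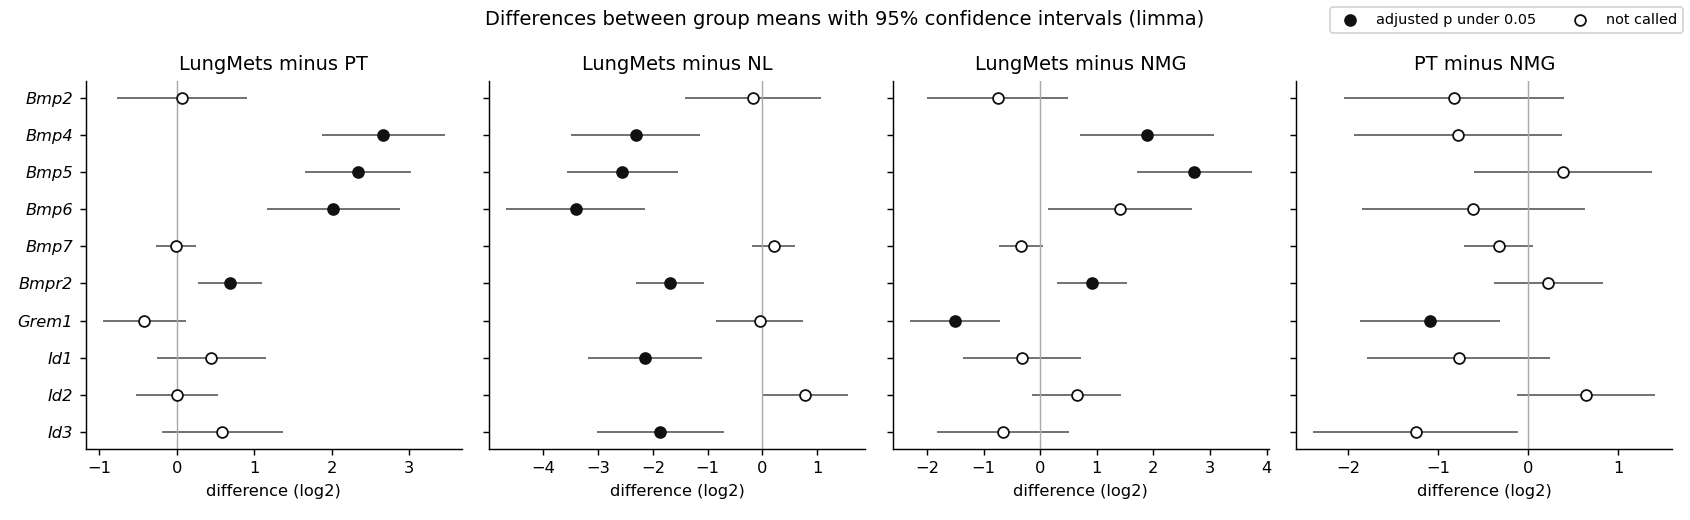
Differences between group means (log2, points) with 95% confidence intervals (lines) from limma for LungMets minus PT, LungMets minus NL, LungMets minus NMG and PT minus NMG, each panel on its own axis. Filled points have an adjusted p under 0.05: 4, 6, 4 and 1 of the 10 genes in these comparisons.

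The targets Id1 and Id3 were lower in both tumor groups than in normal lung, while Id2 was not. Id1 ranged from 7.56 to 9.95 with a median of 8.47 in LungMets and from 6.24 to 9.19 with a median of 8.34 in PT, against 10.84, 10.70 and 10.58 in NL and 8.70, 8.75 and 9.23 in NMG. No tumor array reached the lowest NL array. LungMets fell by 2.14 against NL (SE 0.506, limma adjusted p = 0.00122), and PT fell by 2.58 (SE 0.494, adjusted p = 8.76e-05). LungMets minus PT was 0.44 (95% confidence interval -0.26 to 1.15), and NL exceeded its next neighbour NMG by 1.81 (adjusted p = 0.0286). That call was lost without any single NL array, NMG replicate 1 or NMG replicate 2 (differences of 1.72 to 1.88, adjusted p = 0.0564 to 0.0815).

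Id3 read 7.75 to 9.29 with a median of 8.78 in LungMets, 5.64 to 9.21 with a median of 8.49 in PT, 10.81, 10.55 and 10.20 in NL, and 9.36, 9.18 and 9.40 in NMG. All tumor arrays lay below all NL arrays. The LungMets mean fell by 1.86 against NL (SE 0.564, limma adjusted p = 0.00871) and the PT mean fell by 2.45 (adjusted p = 0.000518). NL and NMG did not overlap either, and their difference of 1.20 did not pass (95% confidence interval -0.22 to 2.63, adjusted p = 0.220). PT minus NMG was -1.25 (SE 0.551), with an adjusted p = 0.0650, and it was called without PT replicate 4, 7, 8 or 9. Some markers of other cells were lower with Id1 and Id3: against NL, 8 of 8 endothelium markers were called lower in LungMets and 8 of 8 in PT, smooth muscle and myoepithelium markers 4 of 5 and 5 of 5, and lung epithelium markers 3 of 8 and 8 of 8. Other lists rose against NL: 5 of 5 proliferation, 4 of 6 cartilage and 2 of 5 basal epithelium markers were called higher in LungMets and likewise in PT. Macrophage markers were called higher for 2 of 5 and lower for 0 in LungMets, and 2 each way in PT. The smooth muscle and myoepithelium mean was 6.70 to 7.66 in LungMets, 5.89 to 7.23 in PT and 8.95 to 9.49 in NL. The part of these cells in the Id1 and Id3 differences was not tested.

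Id2 had the opposite order of means and no call. LungMets lay between 8.82 and 10.80 with a median of 10.09, PT between 9.03 and 11.04 with a median of 9.79, NL at 8.74, 9.56 and 9.42 and NMG at 9.70, 9.44 and 8.99. The groups overlapped throughout. LungMets minus PT was below 0.01 in size (95% confidence interval -0.53 to 0.53), and PT minus NL was 0.78 (0.01 to 1.55, limma adjusted p = 0.0807). Leaving out PT replicate 7 brought a call in PT against NL, and leaving out LungMets replicate 8 brought one in LungMets against NL. The other bright Id2 probe set, 1422537_a_at, gave 0.37 for PT minus NL and 0.22 for LungMets minus NL (limma adjusted p = 0.419 and 0.668). The dim Id2 probe set 1453596_at was called lower in LungMets than in PT (-0.68, adjusted p = 0.0416).

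In the order of levels over the normal tissues, NL exceeded NMG for 5 of the 10 genes (Bmp4 4.204, Bmp5 5.28, Bmp6 4.82, Bmpr2 2.60 and Id1 1.81), where 14.3% of all genes were called higher, and Grem1 was the 1 gene lower in NL (-1.46, limma adjusted p = 0.0212), where 14.5% of all genes were. The Grem1 call was lost without NL replicate 2 or 3 or NMG replicate 2 or 3 (differences of -1.46 to -1.30, adjusted p = 0.0504 to 0.0859). PT were lower than NL for the same 6 genes as LungMets (Bmp4 -4.98, Bmp5 -4.89, Bmp6 -5.43, Bmpr2 -2.37, Id1 -2.58 and Id3 -2.45), where 25.3% of all genes were. These comparisons share their NL or NMG arrays. Over the 10 genes the median difference was 0.52 for LungMets minus PT, -1.78 for LungMets minus NL and -0.69 for PT minus NMG, beside -0.02, 0.05 and 0.09 over all genes.

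Among the 11 primary tumors the Id genes did not vary as 1 block. Id1 and Id3 varied together (Pearson r = 0.97, Spearman rho = 0.95, permutation p = 1e-05, the smallest that 100000 draws can give, adjusted p = 0.00045 over 45 pairs of the 10 genes), and both ran with Bmp2 (r = 0.93 with Id1 and 0.88 with Id3). Id2 ran against all of them, with r = -0.92 to Bmp2 (rho = -0.90), -0.85 to Id1 (rho = -0.91) and -0.82 to Id3 (rho = -0.81). The permutation p adjusted over the 45 pairs was 0.0021 for Bmp2 with Id1, 0.00576 for Bmp2 with Id3, 0.0021 for Bmp2 with Id2, 0.00562 for Id1 with Id2 and 0.0167 for Id2 with Id3.

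PT replicates 6 and 10 formed one end of this pattern. They read 6.37 and 6.24 for Id1, 6.43 and 5.64 for Id3 and 4.64 and 4.62 for Bmp2, the lowest of each, and 10.82 and 11.04 for Id2, beside 10.86 in replicate 5 and 10.36 or less in the other 8. Replicates 6 and 10 are also the arrays farthest from the median of Id1 and of Bmp2. Without them r was 0.95 for Id1 with Id3, 0.81 for Bmp2 with Id1, 0.67 for Bmp2 with Id3, -0.86 for Bmp2 with Id2, -0.76 for Id1 with Id2 and -0.64 for Id2 with Id3, values chosen after seeing the data and given with no test. For Id2 the farthest arrays are replicates 5 and 10, and r with Id3 was -0.94 without those. Without PT replicate 5, all 6 pairs among Bmp2, Id1, Id2 and Id3 kept an adjusted permutation p under the threshold, with r of 0.98 for Bmp2 with Id1 and -0.96 for Id1 with Id2. Within the 7 PT of the second label date r was 0.99 for Id1 with Id3 and -0.83 for Id1 with Id2. By the exact permutation test adjusted over 45 pairs, the pairs of Bmp2, Id1 and Id3 passed there (0.0417 each), while Id2 did not pass with Id1 (0.0781), Bmp2 (0.0821) or Id3 (0.107). On Spearman rho the pairs of Bmp2, Id1 and Id3 did not pass there (adjusted p = 0.138 for Bmp2 with Id1, 0.101 for Bmp2 with Id3 and 0.101 for Id1 with Id3). The 4 of the first date are too few for a correlation.

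In total 9 of the 45 pairs passed within PT. How many pairs of other genes pass such a test, in PT or in LungMets, was not counted. The counts of passing pairs are therefore descriptions and do not set these genes apart from others. Grem1 joined the pattern of Bmp2 and the Id genes with r = 0.76 to Bmp2 and -0.80 to Id2. Both calls were lost without PT replicate 5 (r = 0.74 and -0.79). Bmp4 with Bmp5 (r = 0.94) rested on replicate 5 alone, since r was 0.51 without it and rho was 0.59 with it. Among the 9 LungMets 3 of 45 pairs passed by an exact permutation test: Bmp4 with Bmp5 (r = 0.97, rho = 0.97, adjusted p = 0.00223), Bmp6 with Bmpr2 (r = 0.98, rho = 0.95, adjusted p = 0.00229) and Id1 with Id3 (r = 0.87, rho = 0.85, adjusted p = 0.0273). All 3 passed without LungMets replicate 9 as well. Further pairs passed without it: Bmp2 with Bmp4 (r = 0.98), Bmp5 (0.82) and Id2 (-0.77), and Bmp4 with Id2 (-0.78) and Id3 (0.85). So did Bmp5 with Bmp7 (-0.82), Bmp6 with Id1 (0.96) and Id3 (0.86), and Bmpr2 with Id1 (0.92). Their exact permutation p for Pearson r, adjusted over 45 pairs, lay between 0.00558 and 0.0495. By the same test on Spearman rho, Bmp2 with Id2 (adjusted p = 0.123) and Bmp4 with Id2 (0.0817) and Id3 (0.0536) did not pass. Nor did Bmp5 with Bmp7 (0.0898) or Bmpr2 with Id1 (0.0692). On rho with LungMets replicate 9 kept, Id1 with Id3 did not pass (0.0683), while Bmp6 with Id3 did (0.0461). Among all 9 LungMets, Id1 with Id2 gave r = -0.42 (exact permutation p = 0.262), and whether this differs from PT was not tested.

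**Figure D4:**
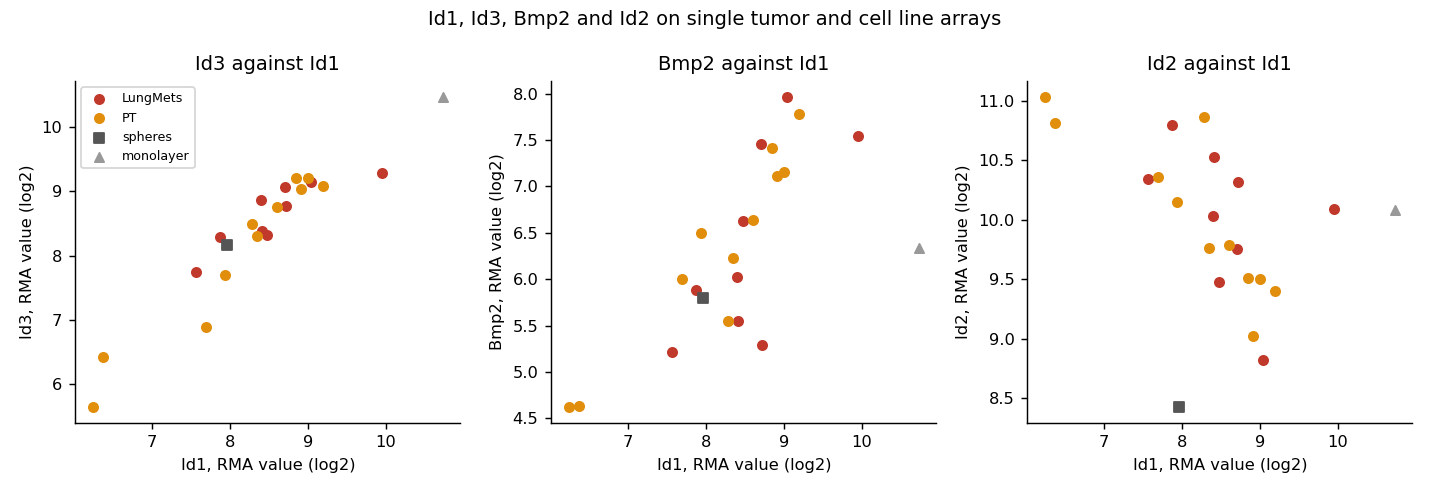
RMA values (log2) of Id3, Bmp2 and Id2 against Id1 on single LungMets, PT, spheres and monolayer arrays. Within PT, Id3 and Bmp2 rise with Id1 (r = 0.97 and 0.93) and Id2 falls (r = -0.85), and the monolayer lies above every tumor in Id1 and Id3.

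Several markers of cell state and of other cells moved along the same axis of the primary tumors. Over the 11 PT, Id1 correlated at 0.85 with Vim, an intermediate filament of mesenchymal cells, at 0.93 with the mean of the smooth muscle and myoepithelium markers, at 0.78 with fibroblast markers, at 0.87 with macrophage markers, at -0.83 with proliferation markers and at -0.76 with luminal epithelial markers. Id2 correlated at 0.90 with the luminal markers and at -0.93 with Vim. PT replicates 6 and 10 read 13.36 and 13.29 for Epcam, the highest of the 11, and 10.54 and 11.32 for Vim. For Cdh2, a further marker of mesenchymal cells, they read 8.86 and 9.47, inside the range of the other PT (6.19 to 10.47). Not every mesenchymal marker was thus low where Id1 was lowest. The correlations are descriptions over all 11 PT, with replicates 6 and 10, the lowest in Id1, included, and r without them is not given. The part of such cells in the pattern of the Id genes was not tested.

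In the cell line all 3 Id genes were lower in spheres than in the monolayer. Id1 read 7.96 in spheres and 10.73 in the monolayer (-2.77, 6.82-fold), Id2 8.42 and 10.08 (-1.65, 3.15-fold) and Id3 8.16 and 10.48 (-2.32, 4.98-fold). With 1 array each there is no replicate check and no test. A difference over 2-fold downward was seen for these 3 of the 10 genes, where 5.21% of all genes had one, and for 0 of the 10 upward, where 2.91% of all genes had one. The other 7 lay between -0.54 (Bmp2) and 0.47 (Bmp6). Monolayer Id1 and Id3 lay above every tumor array, whose highest were 9.95 and 9.29, while sphere Id1 and Id3 lay within the PT range and sphere Id2 below it (lowest PT 9.03). Proliferation markers averaged 7.26 in spheres and 10.31 in the monolayer, and their part was not tested.

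Of 56 other genes of the pathway, 51 were measured. In LungMets against PT 9 were called higher and 2 lower, where 9.02% and 6.14% of all genes were. Among receptors and co-receptors 4 of 10 were higher and 0 lower, led by Acvrl1, the type I receptor for BMP9 and BMP10 in endothelium (1.78, SE 0.367), Eng, its co-receptor endoglin (1.10, SE 0.226) and Tgfbr3, betaglycan (0.89, SE 0.250), with limma adjusted p of 0.00175, 0.00172 and 0.0176. Acvrl1 averaged 6.73 ± 1.11 in LungMets, 4.95 ± 0.80 in PT, 9.50 ± 0.18 in NL and 5.41 ± 0.20 in NMG (SD), the order seen for Bmp4.

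Among the antagonists and extracellular modulators 3 of 15 were higher in LungMets than in PT and 0 lower: Bmper, an endothelial BMP-binding protein (1.20), Nbl1, a DAN family antagonist (0.71) and Chrdl1, a chordin-like antagonist (0.69), with limma adjusted p of 0.0168, 0.0096 and 0.0434. Of 10 SMADs and regulators Smad6, the inhibitory SMAD of the BMP branch and itself a target, was higher (1.55, adjusted p = 0.0109), and Smad4 and the corepressor Ski were lower (-0.26 each, adjusted p = 0.0309 and 0.0499). Atoh8 was the 1 of 7 other targets called (0.35, adjusted p = 0.00756). The 6 other ligands and the 3 E-proteins gave no call.

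In PT against NMG 19 of the 51 were called higher and 9 lower, where 26.7% and 21.0% of all genes were. Other targets went both ways, with Dlx5, a homeobox gene of bone (3.11, SE 0.462) and Hey1 (2.05, SE 0.710) higher and Id4, the fourth Id gene (-3.10, SE 0.272) lower, with limma adjusted p of 5.13e-06, 0.0199 and 1.46e-09. Id4 averaged 5.79 ± 0.29 in LungMets, 5.35 ± 0.24 in PT, 7.44 ± 0.28 in NL and 8.46 ± 1.18 in NMG (SD). Of the 15 modulators 4 were higher, Bambi, a pseudoreceptor that damps BMP and TGF-beta signals, the most (2.23, adjusted p = 0.000146), and 3 lower, among them Chrdl1 (-2.31, adjusted p = 3.64e-06) and Bmper (-2.24, adjusted p = 0.000481).

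SMADs and regulators were called higher in PT than in NMG for 5 of 10 and lower for 0, with Skil at 1.32, Ski at 1.26 and the inhibitory Smad7 at 0.89 (limma adjusted p of 1.56e-10, 2.60e-08 and 0.00365). Of 10 receptors 3 were higher, among them Acvr1 (1.21, adjusted p = 0.000929) and Acvr2b (1.16, adjusted p = 0.0010), and 2 lower, Tgfbr3 the most (-2.59, adjusted p = 2.25e-06). Among 6 other ligands 4 were higher, with Gdf5 at 0.91, Gdf2 at 0.67 and Bmp10 at 0.42, and 1 lower. In NMG, Gdf5 and Bmp10 averaged 3.69 and 3.68, below the highest PT value of Kdm5d (3.74), which limits their differences. The E-proteins Tcf4 (-0.89) and Tcf12 (0.28) went opposite ways. The median difference over the 51 was 0.11, beside 0.09 over all genes.

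The genes with the profile most like each of the 10 were found by Pearson r over the 26 tissue arrays, which fall into groups, so r carries the differences between groups. For Bmp4 these were Shh, a signaling ligand of airway epithelium (r = 0.982), Tbx2 (0.980) and Tmem178 (0.980), and for Bmp5 Lgi3 (0.986), Itgb6 (0.986) and Tcf21, a factor of lung mesenchyme (0.984). Bmp6 was most like Acvrl1 (0.986), Caskin2 (0.981) and Gata2 (0.980), and Bmpr2 most like Tjp1 (0.979), Fgfr3 (0.970) and Tmcc2 (0.967). Id1 ran with Abcb1a (0.972), Map3k20 (0.963) and the VEGF receptor Flt1 (0.963), and Id3 with Msrb3 (0.977), Antxr1 (0.964) and Igfbp7 (0.963). Id2 had Shisa2 (0.917), Kdf1 (0.907) and Pdzrn3 (0.895), Bmp2 had Bnc2 (0.919), Gpx8 (0.906) and Zfp275 (0.898), and Grem1 had Pold4 (0.886), Grb2 (0.883) and Stk17b (0.873). Bmp7 had no close match, with Lmnb1 (0.732), Mpo (0.705) and Plekhs1 (0.701) the nearest.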

How the data were processed

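Arrays of 26 mouse tissues and 2 cell cultures were used. The authors made the deposited log2 values by RMA (background correction, quantile normalization and a summary per probe set) in Partek; the RMA version is not given in the sources used here. Quantile normalization sets the arrays to nearly 1 distribution, so values are relative to the rest of the array, and RMA compresses large folds of dim genes.

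Probe sets that list 1 gene symbol (34958 of 45101) stood for 18194 genes; 932 list several and 9211 none. A gene with several was read from the brightest in tissue. limma 3.58.1 (R 4.3.3) fitted 1 mean per group, with eBayes and Benjamini-Hochberg adjustment over all genes (two-sided, called at 0.05), without a filter or a replicate block. The cell lines entered no fit. Correlations used 100000 permutations, or all of them for 9 arrays or fewer. The number of arrays limits the precision. Before use, the script was tested on simulated data of this design.

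The genes, lists and tests were chosen with earlier results of these data known. Named were the 10 genes, per pathway list up to 3 with the largest difference among those called (LungMets against PT; PT against NMG), and the 3 genes most like each of the 10. Alternatives were other probe set rules, filters, normalizations and fits, label date and replicate number as blocks, single dates and leaving out arrays. Plots used Python 3.11.15 and matplotlib 3.10.9. Columns of the authors' comparisons were not used here.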

Additional observations from a re-analysis of the deposited data

Results flagged for a closer look

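In LungMets replicate 9, Bmp4 read 4.74, and the next lowest of the 9 LungMets arrays read 6.86, a gap of 0.525 of the whole range. On the same array Bmp5 read 3.65 and the next lowest array 5.67, a gap of 0.575 of the range. Both gaps are larger than Dixon's limit for 9 arrays, which chance passes in about 1 of 20 groups. The limit was applied to all 10 genes, so a gap in some gene is more frequent than that. Bmp4 and Bmp5 also vary together in LungMets (r = 0.97), so these gaps are not independent. The lung epithelium markers of that array are the lowest of the group (mean 6.69). The part of those cells was not tested. Without this array LungMets minus PT was 3.00 for Bmp4 and 2.64 for Bmp5, against 2.67 and 2.34 with it.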

How the results depend on the processing

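Bmp4, Bmp5 and Bmp6 kept their direction and call in LungMets against PT under every alternative run on them except the second label date alone, which called 0 genes and 0 of the 10 (4 of 10 and 1081 genes after PT replicate 5 and LungMets replicate 9 were left out, a choice made after seeing the data); the first date alone called 1393 genes. Bmp5 and Bmp6 were not tested under the filter on mean signal, where they lie below it. The call of Bmpr2 was lost with the mean of its probe sets, the fixed date block and each date alone. Bmpr2 turned with probe set 1419616_at to -0.42 for LungMets against PT, 1.01 for LungMets against NL and 1.43 for PT against NL. Genes in the upper part of the signal alone, which leaves out dim members, gave 0 of the 10 in PT against NMG, 2 in LungMets against PT, 2 in LungMets against NMG and 3 in NL against NMG, and 5342, 5300, 4261, 3229 and 6158 genes for PT against NMG, LungMets against NL, LungMets against NMG, NL against NMG and PT against NL. With a fold over 2 as well, 564 genes were called in LungMets against PT, 2962 in LungMets against NL, 2422 in LungMets against NMG, 3137 in PT against NMG, 2738 in NL against NMG and 4162 in PT against NL. Array weights called 4157 genes in LungMets against PT, 8062 in NL against NMG, 8 of the 10 in LungMets against NMG and 3 in PT against NMG, and centred arrays called 5021 genes in LungMets against PT. Leaving out single arrays gave 2 to 5 of the 10 in LungMets against NMG and 0 to 2 in PT against NMG. In PT against NMG the count was also 3 with the mean of probe sets, 0 in the fit of 2 groups and 2 with date as a random block.

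Between LungMets and PT, deviations of same-numbered arrays correlated above 0 in 8 of 9 pairs and over 0.1 in 7 (r from -0.23 to 0.48), with 1 of 9 closest to its own number; since this did not hold for every pair, numbers were not taken as pairs. The replicate block called 5 of the 10 in PT against NMG, against 1 without it, and 4 in LungMets against PT. NMG came from other mice, which received no cells, so a number shared with PT marks no known pair. Deviations of same-numbered PT and NMG arrays correlated at -0.049 to 0.059, and the 5 calls are not relied on.

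These differences, none of which had passed, changed sign. For LungMets minus PT, Bmp2 became -0.048 with centred arrays, -0.62 with array weights, -0.14 with the replicate block and -0.73 on the first date, Bmp7 became 0.017 with array weights, 0.024 on the second date and 0.089 there without the arrays that stand apart, Id1 became -0.0056 on the first date, and Id2 became 0.044 after a second quantile normalization, 0.22 with array weights, 0.084 with the replicate block, 0.19 on the first date and 0.12 on the second without the arrays that stand apart. Probe set 1453596_at turned Id2 to -0.012 in PT against NMG, -0.0062 in LungMets against NL and -0.69 in LungMets against NMG, probe set 1432410_a_at turned Bmp7 to -0.030 in LungMets against NL, and centring turned Grem1 to 0.0080 in LungMets against NL. Leaving out arrays gave -0.13 to 0.21 for Bmp2, -0.067 to 0.040 for Bmp7 and -0.10 to 0.15 for Id2 in LungMets against PT, -0.16 to 0.062 for Grem1 in LungMets against NL and -0.33 to 0.11 for Id2 in NL against NMG. The cause was not tested. In PT and NMG the signal of Bmp5 lay near that of the Y-linked genes, which limits its differences there.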
